A study of Rattus norvegicus with 12 samples.

Results

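Gzmc, Prf1, Srgn and Il2rb, genes of the cytotoxic granule and of the cytokine receptor that sustains cytotoxic lymphocytes, were followed in the blood of rats given lipopolysaccharide (LPS), the endotoxin of Gram-negative bacteria. They were taken by symbol from the annotation of the array platform, 4 genes of 3939 named on it, each with 1 probe. They were chosen by their measured log2 ratios on the arrays and in the rats at 6 h and 2 h, so those ratios and the difference between them are given as a description, without a test. That the RNA came from blood is stated by the title of the series alone. Total RNA of 3 rats at 6 h after LPS (numbered 2, 4 and 6) and of 3 rats at 2 h (numbered 1, 2 and 3) was hybridised on 2-colour arrays, 12 in all. Rat 2 at 6 h and rat 2 at 2 h were counted as separate animals, which the labels leave unsaid. Every rat was set against the control pool of its own time, once with the pool in channel 1 (fluor) and once with the channels exchanged (flip). The sources used here give no strain, sex, age, LPS dose or route, and they leave unsaid how many animals made up a pool and what these received.

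Natural killer (NK) cells and cytotoxic T cells kill by releasing granules toward a target cell. Perforin, encoded by Prf1, opens the target's membrane, and granzymes, serine proteases such as the product of Gzmc, enter and cleave proteins inside. Serglycin, encoded by Srgn, is the proteoglycan on whose sugar chains granzymes and perforin are packed; it also loads the granules of neutrophils, mast cells and platelets. Il2rb encodes the beta chain shared by the receptors for interleukin-2 and interleukin-15, which NK cells carry at rest and T cells carry more of once activated.

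Promoters were matched by symbol for 3 of the 4 members (not for Il2rb), and all 3 are shown, as members whose ratios lay above 0 on all 6 arrays at 6 h. They run from 250 bases before to 50 bases after the start of the gene, 5′ to 3′ on the gene's strand, and come from RefSeq on build GRCr8. Capitals mark TGACG on either strand, the half-site of the cyclic AMP response element (CRE).
Gzmc (chr15:34439957-34440256, minus strand): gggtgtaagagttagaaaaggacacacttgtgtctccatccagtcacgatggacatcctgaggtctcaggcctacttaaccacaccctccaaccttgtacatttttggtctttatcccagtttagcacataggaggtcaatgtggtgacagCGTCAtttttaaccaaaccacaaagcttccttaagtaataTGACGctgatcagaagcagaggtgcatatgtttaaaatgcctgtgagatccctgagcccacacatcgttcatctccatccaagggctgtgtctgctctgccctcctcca
Prf1 (chr20:29788790-29789089, plus strand): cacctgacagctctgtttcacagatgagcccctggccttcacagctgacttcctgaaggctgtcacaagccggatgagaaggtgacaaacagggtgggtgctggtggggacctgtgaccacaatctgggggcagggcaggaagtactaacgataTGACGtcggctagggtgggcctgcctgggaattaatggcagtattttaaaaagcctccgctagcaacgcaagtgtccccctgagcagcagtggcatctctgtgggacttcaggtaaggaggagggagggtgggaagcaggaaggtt
Srgn (chr20:31000054-31000353, minus strand): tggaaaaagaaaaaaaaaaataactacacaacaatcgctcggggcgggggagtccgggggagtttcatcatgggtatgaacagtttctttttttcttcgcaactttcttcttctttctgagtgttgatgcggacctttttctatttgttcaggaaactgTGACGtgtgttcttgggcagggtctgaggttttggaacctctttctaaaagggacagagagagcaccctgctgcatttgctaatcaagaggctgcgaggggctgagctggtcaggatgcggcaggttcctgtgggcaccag
The half-site occurred in each of the 3, with its leftmost base at -99 and -59 in Gzmc, -96 in Prf1 and -91 in Srgn, and in 21.2% of 33469 promoters of the same length. The ETS core AGGAAG was found 1 time in Gzmc, 3 times in Prf1 and 0 times in Srgn (34.5% of all promoters held it). The RUNX core TGTGGT was found 3 times in Gzmc, 1 time in Prf1 and 0 times in Srgn (17.3%). The AP-1 site TGANTCA (7.33%) and the interferon-gamma-activated site TTCNNNGAA (8.87%) were not found in these 3 windows. Both strands were searched, the marked half-site was chosen after the sequences were seen, and a match of letters is a description, not a binding site.

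Each value below is a log2 ratio as deposited, read as LPS over control pool, so that 1 unit is a doubling. That direction is likely and not stated: textbook LPS-induced genes such as Il1b (2.05 ± 0.13 at 6 h and 3.90 ± 0.31 at 2 h) and Irf1 (0.46 ± 0.10 and 0.21 ± 0.04) stood above 0. Of 9 measured LPS-induced genes, 8 had means above 0 at 6 h and 7 at 2 h. Nfkbia stood at -0.11 ± 0.05 at 6 h. At 2 h Tnf stood at -0.0 ± 0.06 and Saa4 at -0.05 ± 0.13. Readings of the 2 orientations within a rat correlated weakly over all probes, with Pearson's r between -0.23 and 0.25, and the r was below 0 in 1 rat of each time. For that reason the members are also given with the flip arrays multiplied by -1. In that setting a change that both orientations read alike cancels, and the difference between the orientations remains. Il1b then stood at 0.22 at 6 h and 0.3 at 2 h. The median of the LPS-induced genes was then 0.06 at both times, against 0.26 at 6 h and 0.12 at 2 h as deposited. Errors are standard deviations (SD) over 3 rats, whose 2 arrays were averaged. They leave out the spread of the control pool. In bulk RNA more cells of a type and more RNA per cell cannot be told apart.

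Gzmc, a granzyme of the chymase-like branch, was the member with the highest ratios. At 6 h its fluor and flip arrays read 2.35 and 0.93 in rat 2, 2.45 and 1.82 in rat 4, and 2.07 and 1.61 in rat 6. At 2 h they read 1.41 and 0.85 in rat 1, 1.21 and 1.42 in rat 2, and 1.65 and 0.46 in rat 3. All 12 arrays lay above 0, as they did for 3.88% of all genes (all 6 at 6 h for 10.2%, all 6 at 2 h for 10.6%), and every rat at 6 h stood above every rat at 2 h. The mean was 1.87 ± 0.25 at 6 h (3.66-fold) and 1.17 ± 0.13 at 2 h (2.24-fold). By mean ratio Gzmc held rank 6 of 3939 genes at 6 h and rank 12 at 2 h, and 5 other genes had a mean at least as high as Gzmc at both times. It held rank 8 at 6 h and rank 37 at 2 h with the flip arrays multiplied by -1.

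The rat Gzmc gene lies in a dense cluster of granzyme and mast cell protease genes on chromosome 15. In the GRCr8 gene table the cluster holds 26 genes named as granzymes, mast cell proteases, chymase or cathepsin G, of which 6 are named pseudogenes, 4 of them of Gzmc. Gzmb is the next of these genes after Gzmc. Whether the Gzmc probe also bound RNA of these relatives was not tested. Of the 26, 4 were measured, namely Gzmc, Mcpt9, Mcpt1 and Cma1, the last 3 being mast cell proteases (Cma1 is named here after its values were seen). Their means were 0.57 ± 0.28 for Mcpt9, 0.22 ± 0.05 for Mcpt1 and 0.18 ± 0.13 for Cma1 at 6 h, against 0.25 ± 0.12, 0.07 ± 0.07 and 0.03 ± 0.06 at 2 h. Mcpt9 lay above 0 on all 12 arrays. Mcpt1 stood at -0.0053 on the fluor arrays alone at 6 h.

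Srgn, the packing proteoglycan, followed Gzmc in direction at lower ratios. At 6 h its fluor and flip arrays read 1.81 and 1.11 in rat 2, 1.49 and 0.90 in rat 4, and 1.26 and 1.02 in rat 6. At 2 h they read 0.93 and 0.77 in rat 1, 0.84 and 0.63 in rat 2, and 0.75 and 0.31 in rat 3. Again all 12 arrays lay above 0 and the rats of the 2 times did not overlap. The lowest rat at 6 h was rat 6 at 1.14, and the highest at 2 h was rat 1 at 0.85. The mean was 1.27 ± 0.17 at 6 h (2.41-fold) and 0.70 ± 0.16 at 2 h (1.63-fold). Srgn held rank 10 of 3939 genes at 6 h and rank 28 at 2 h, and ranks 78 and 229 with the flip arrays multiplied by -1.

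Prf1, the pore-forming protein, was close to its control pool at 2 h and slightly above it at 6 h. The fluor and flip arrays at 6 h read 0.23 and 0.19 in rat 2, 0.27 and 0.34 in rat 4, and 0.10 and 0.48 in rat 6. Those at 2 h read -0.13 and -0.01 in rat 1, 0.10 and 0.06 in rat 2, and -0.15 and 0.18 in rat 3. All 6 arrays at 6 h and 3 of 6 at 2 h lay above 0. The mean was 0.27 ± 0.05 at 6 h (1.20-fold) and 0.0095 ± 0.07 at 2 h (1.01-fold), which placed Prf1 at rank 167 of 3939 at 6 h and rank 1720 at 2 h (2966 and 3082 with the flip arrays multiplied by -1). The 3 rats at 6 h (0.21, 0.30 and 0.29) stood above the 3 at 2 h (-0.07, 0.08 and 0.01).

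Il2rb, the receptor chain, ran the other way in time. Its fluor and flip arrays at 6 h read -0.05 and 0.16 in rat 2, -0.28 and 0.09 in rat 4, and -0.21 and 0.09 in rat 6. At 2 h they read 0.69 and 0.42 in rat 1, 0.47 and 0.42 in rat 2, and 0.25 and 0.25 in rat 3. All 6 arrays at 2 h were above 0, whereas at 6 h the 3 fluor arrays were below 0 and the 3 flip arrays above it. The mean was -0.03 ± 0.08 at 6 h (0.977-fold) and 0.42 ± 0.16 at 2 h (1.33-fold). By mean ratio Il2rb was at rank 2562 of 3939 at 6 h and rank 84 at 2 h (3639 and 927 with the flip arrays multiplied by -1).

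**Figure D1:**
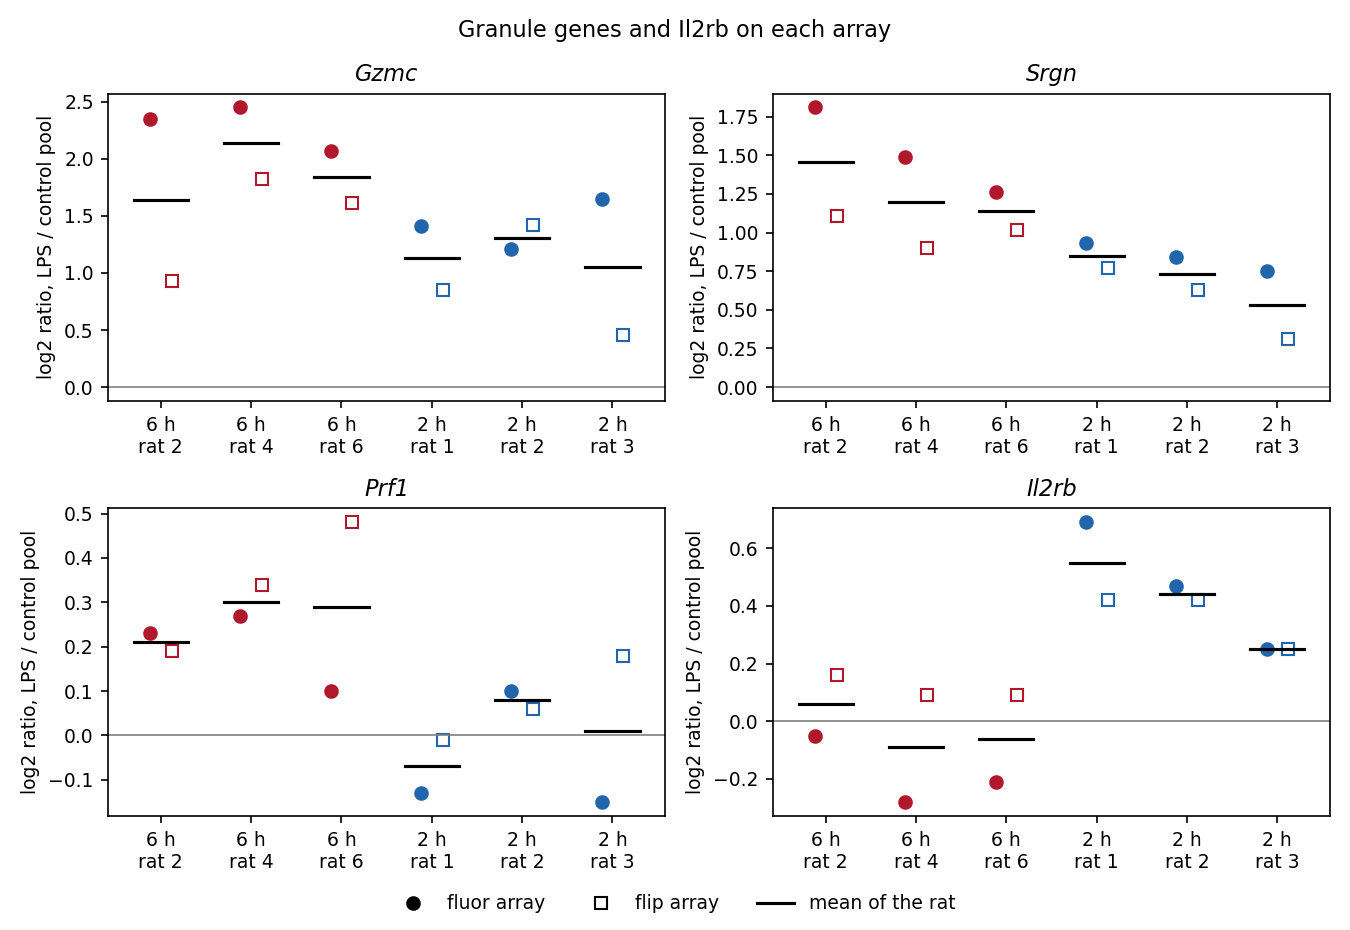
Log2 ratio of LPS over control pool (vertical axis) of Gzmc, Srgn, Prf1 and Il2rb in each rat (horizontal axis, 6 h in red, then 2 h in blue); filled circles are fluor arrays, open squares flip arrays and bars the mean of a rat. Rat means of Gzmc, Srgn and Prf1 are higher at 6 h than at 2 h, and those of Il2rb are lower, with no overlap; the vertical scale differs between panels.

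Set side by side, the 6 h minus 2 h difference of means was 0.71 for Gzmc (standard error, SE, 0.13; 1.63-fold), 0.56 for Srgn (SE 0.11; 1.48-fold), 0.26 for Prf1 (SE 0.05; 1.20-fold) and -0.45 for Il2rb (SE 0.08; 0.733-fold). These SEs come from the limma fit over all genes, which moderates the spread of each gene, and not from the rats of that gene alone. Each of the 4 members had rats of the 2 times that did not overlap, as had 21.7% of all genes. Rats at 6 h stood wholly above those at 2 h in 11.6% of genes and wholly below in 10.1%. Over all genes the difference had its 5th percentile at -0.21 and its 95th at 0.22. These differences also hold any difference between the 2 control pools, since each time had its own. The ratios, which are not levels of the RNAs, ran in the order Gzmc, Srgn, Prf1, Il2rb at 6 h and Gzmc, Srgn, Il2rb, Prf1 at 2 h. Neighbours in the order at 6 h did not overlap between rats, the closest being the lowest Prf1 rat at 0.21 and the highest Il2rb rat at 0.06. At 2 h Srgn and Il2rb overlapped, with the lowest Srgn rat at 0.53 and the highest Il2rb rat at 0.55.

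**Figure D2:**
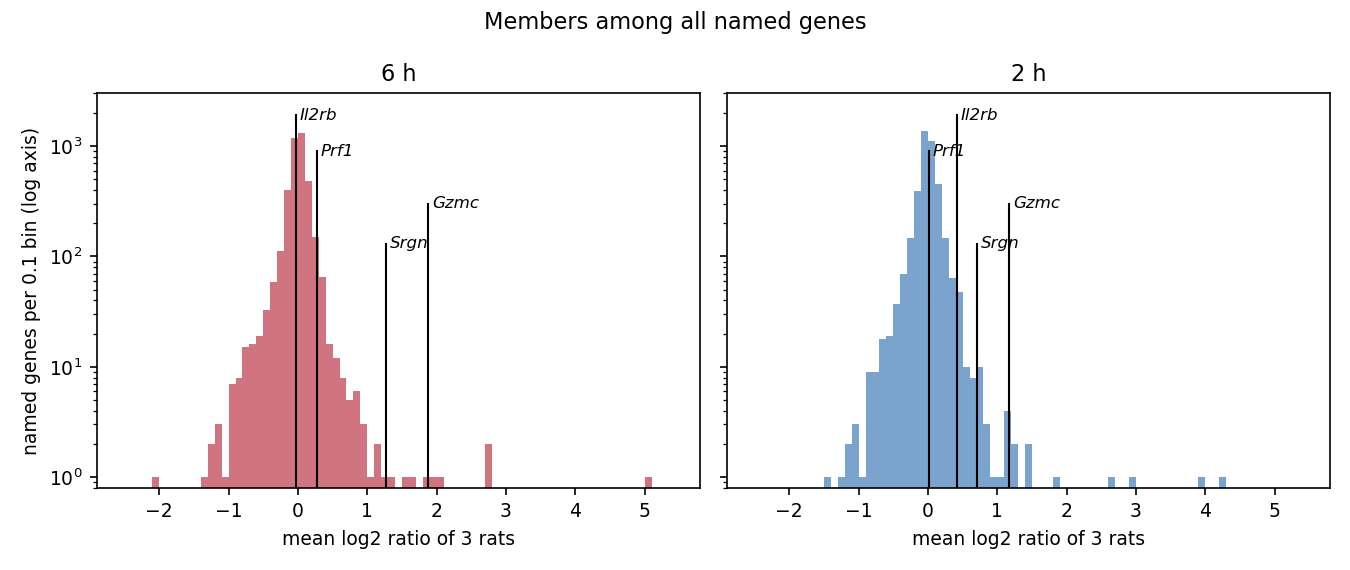
Number of named genes (vertical log axis) by mean log2 ratio over 3 rats (horizontal axis, bins of 0.1) at 6 h on the left and at 2 h on the right, with a line at each member. Gzmc and Srgn lie in the right tail at both times (1.87 and 1.27 at 6 h, 1.17 and 0.70 at 2 h), Prf1 lies near the centre at 2 h (0.0095) and Il2rb at 6 h (-0.03).

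The 2 arrays of a rat did not read alike. The fluor reading of Srgn exceeded the flip reading in 6 of 6 rats (20.0% of all genes), by 0.16 to 0.70, and that of Gzmc in 5 of 6 (35.4% of genes in at least 5), with differences from -0.21 to 1.42. For Prf1 and Il2rb it did so in 2 of 6 rats. At 6 h the fluor and flip means were 2.29 and 1.45 for Gzmc, 1.52 and 1.01 for Srgn, 0.20 and 0.34 for Prf1, and -0.18 and 0.11 for Il2rb. At 2 h they were 1.42 and 0.91, 0.84 and 0.57, -0.06 and 0.08, and 0.47 and 0.36. With the flip arrays multiplied by -1, readings that the 2 orientations share cancel. Gzmc then stood at 0.42 at 6 h and 0.26 at 2 h, and Srgn at 0.26 and 0.14. Prf1 was at -0.07 and -0.07, and Il2rb at -0.15 and 0.05.

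None of the 4 probes held the repeated value of an array on any array. The 10 probes numbered nearest to Gzmc had means of -0.30 to 0.22 at 6 h and -0.19 to 0.20 at 2 h, and those nearest to Prf1 -0.17 to 0.28 and -0.11 to 0.13. Those nearest to Srgn ran from -0.27 to 0.99 at 6 h and from -0.19 to 0.53 at 2 h, and those nearest to Il2rb from -0.10 to 0.34 and from -1.27 to 1.00. Next to Srgn the glucocorticoid receptor gene Nr3c1, numbered 2 before it, stood at 0.99 at 6 h and 0.53 at 2 h, while the probes numbered directly before and after Srgn stood at 0.07 and 0.01 at 6 h. Near Il2rb, the transcription factor gene Fosl2, numbered 5 after it, stood at 0.34 at 6 h and 1.00 at 2 h, the cardiac actin gene Actc1, 2 after it, at 0.04 and 0.64, and an unnamed probe, 3 after it, at 0.20 and -1.27. With the median of 10 neighbouring probes subtracted, the members were at 1.85 and 1.11 (Gzmc), 1.25 and 0.71 (Srgn), 0.24 and 0.04 (Prf1) and -0.11 and 0.46 (Il2rb) at 6 h and 2 h.

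Most other measured contents of the cytotoxic granule did not pass a test against 0, 5 of 7 at each time. Genes that are no members were tested with limma over all 3939 genes at an adjusted p under 0.05. At 6 h 19.0% of genes passed, 8.3% as higher and 10.7% as lower, and at 2 h 19.2% passed, 9.34% as higher and 9.82% as lower. The 6 h minus 2 h difference passed in 0.508% of genes, 0.33% as higher and 0.178% as lower. Ctsc, of the granule contents list, missed it in this fit (-0.31, limma adjusted p = 0.0594) but passed under 4 alternatives: an orientation term with a random rat block (0.0175), scaling between arrays (0.0494), quantile normalization (0.0318) and its lowest-numbered probe alone (0.0086). Of 17 further granule genes 7 were measured; 1 passed as higher and 1 as lower at each time, and the list median was -0.02 at 6 h and -0.06 at 2 h, against 0.01 and -0.007 over all genes. Ctsc, which encodes cathepsin C, the protease that activates granzymes, rose by 0.17 ± 0.01 at 6 h (limma adjusted p = 0.0177) and 0.48 ± 0.08 at 2 h (adjusted p = 0.000491). Its 2 probes read 0.24 and 0.11 at 6 h, and 0.72 and 0.25 at 2 h. The call at 6 h was lost without any of the 3 rats of that time (adjusted p 0.0713 to 0.109), with trend and robust settings (0.129) and on flip arrays alone, where Ctsc stood at 0.02 (0.797).

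Lamp1, a lysosomal membrane protein that reaches the cell surface when granules are released, fell to -0.31 ± 0.05 at 6 h (limma adjusted p = 0.0023) and stood at -0.08 ± 0.07 at 2 h. Lamp1 was at 0.07 at 6 h with the flip arrays multiplied by -1. Lamp2, its relative, was at -0.13 ± 0.12 at 6 h and fell at 2 h (-0.26 ± 0.11, adjusted p = 0.021), a call lost without 2 h rat 2 (0.114) or rat 3 (0.0796). Gzmk, the other granzyme measured, stood at -0.07 ± 0.12 at 6 h and -0.14 ± 0.02 at 2 h (adjusted p = 0.287 and 0.081). Gzmc and Gzmk thus had means on opposite sides of 0 at both times. Gzmk did not pass at either, however, and its rats at 6 h ran from -0.22 to 0.01. Ctsw, a cathepsin of cytotoxic cells, was at -0.02 ± 0.01 and -0.04 ± 0.05. Serpinb9, the inhibitor that protects killer cells from granzyme B, was at 0.04 ± 0.07 and -0.06 ± 0.09. Calr, a chaperone also stored in granules, was at 0.09 ± 0.09 and 0.14 ± 0.05. None of these 3 passed at either time.

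Of 24 genes of granule transport and release 9 were measured, and 1 passed, Stx7, an endosomal syntaxin. It fell to -0.30 ± 0.02 at 6 h (limma adjusted p = 0.00256) and to -0.17 ± 0.09 at 2 h (adjusted p = 0.0234; 0.0508 without 2 h rat 1 and 0.0805 without 2 h rat 2). Stx7 was at 0.05 at 6 h with the flip arrays multiplied by -1. Unc13d, which primes granules for fusion, stood at -0.05 ± 0.03 at 6 h and -0.07 ± 0.04 at 2 h. Rab27a, which docks them, stood at -0.06 ± 0.02 and -0.03 ± 0.03, and the syntaxin-binding Stxbp2 at 0.05 ± 0.04 and 0.03 ± 0.08. The other 5 (Snap23, Kif5b, Vamp3, Napa and Nsf), which serve motor transport and membrane fusion, lay between 0.00 and 0.12 at 6 h and between 0.03 and 0.21 at 2 h. The list median was 0.03 at both times.

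Around Il2rb, 10 of 29 listed genes of interleukin-2 and interleukin-15 signalling were measured, and 1 passed. Grb2, an adapter of the Ras pathway, rose by 0.20 ± 0.04 at 6 h (limma adjusted p = 0.0267) and stood at 0.14 ± 0.12 at 2 h. The call at 6 h was lost without any of the 3 rats of that time (0.0719 to 0.143). It was also lost on flip arrays alone, where Grb2 stood at 0.04 (0.65), and with neighbouring probes subtracted (0.111). The cytokine gene Il15 was at -0.11 ± 0.05 at 6 h and -0.08 ± 0.08 at 2 h. Among the transducers, the kinase gene Jak1 was at -0.08 ± 0.04 at 6 h and 0.05 ± 0.04 at 2 h, Stat5b at -0.05 ± 0.07 and -0.04 ± 0.01, Stat3 at 0.03 ± 0.03 and -0.10 ± 0.39, and the kinase gene Syk at -0.08 ± 0.01 and -0.05 ± 0.02. The probes of Stat3 read -0.04 and 0.10 at 6 h, and -0.33 and 0.12 at 2 h. Shc1 (-0.16 ± 0.01 and 0.19 ± 0.24), Sos1 (0.06 ± 0.04 and -0.06 ± 0.09), Akt1 (-0.06 ± 0.15 and 0.13 ± 0.10) and Map2k1 (0.08 ± 0.06 and -0.02 ± 0.04), which carry the signal onward, did not pass either. The list median was -0.06 at 6 h and -0.03 at 2 h.

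**Figure D3:**
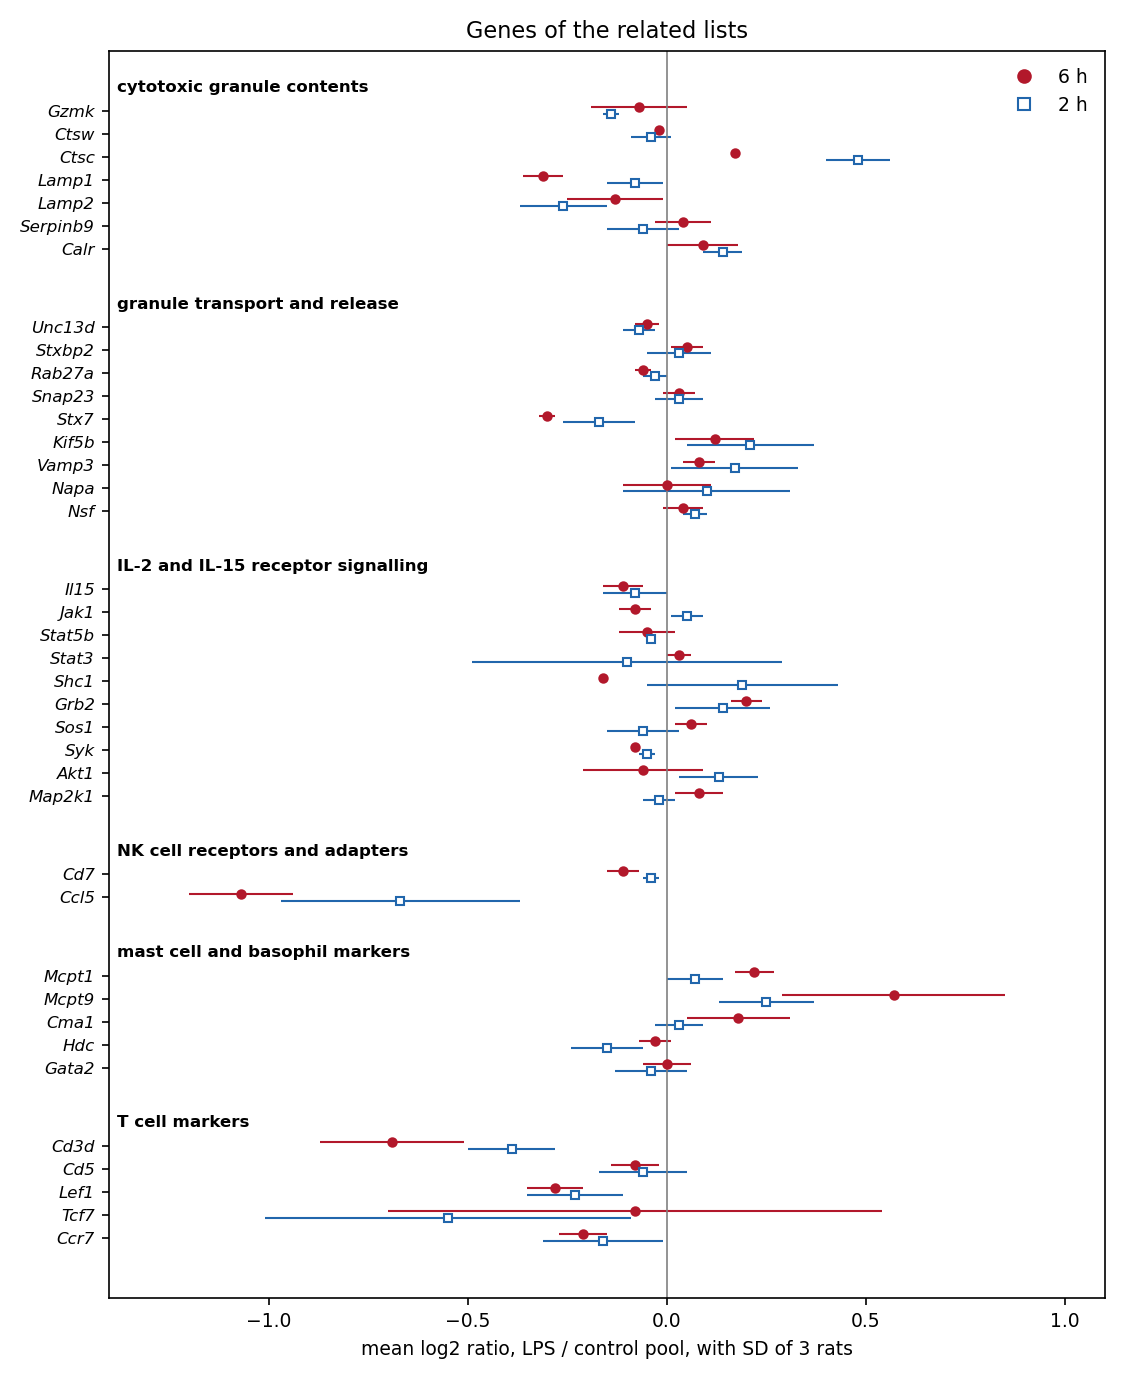
Mean log2 ratio with the SD of 3 rats (horizontal axis) of each measured gene of 6 related lists, 6 h as red circles above 2 h as blue open squares. Ctsc (0.17 at 6 h and 0.48 at 2 h) and Lamp1 (-0.31 at 6 h and -0.08 at 2 h) stand apart among granule contents, and Ccl5 and Cd3d lie furthest below 0 at 6 h (-1.07 and -0.69).

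Markers of the cells that carry these genes were sparse. Of 43 listed receptors, adapters and products of NK cells only Cd7 and Ccl5 were measured, so the label of cytotoxic lymphocytes could not be checked against defining NK markers. Ccl5, a chemokine of NK and memory T cells, fell to -1.07 ± 0.13 at 6 h (0.476-fold; limma adjusted p = 0.00078) and -0.67 ± 0.30 at 2 h (0.628-fold; adjusted p = 0.00623), below 0 on all 12 arrays as deposited but at 0.25 and 0.17 with the flip arrays multiplied by -1. Cd7, a surface protein of T and NK cells, fell to -0.11 ± 0.04 at 6 h (adjusted p = 0.0368; 0.0529 to 0.202 without any of 5 single rats) and was at -0.04 ± 0.02 at 2 h. Gzmc and Srgn were thus above 0 in the same rats in which Ccl5 was below it.

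Of 21 T cell markers 5 were measured, all with means below 0; 3 passed as lower at 6 h and 2 at 2 h. With the flip arrays multiplied by -1, 1 passed as lower at each time, and the list medians were -0.06 and -0.08, against -0.21 and -0.23 as deposited. The gene that passed there was none of Cd3d, Lef1 and Ccr7, whose calls were all lost. In that setting the limma adjusted p was 0.794 and 0.439 for Cd3d, 0.188 and 0.293 for Lef1, and 0.884 for Ccr7 at 6 h. Cd3d, a chain of the T cell receptor complex, fell to -0.69 ± 0.18 at 6 h (limma adjusted p = 0.00106; with turned flip arrays -0.04, adjusted p = 0.794) and -0.39 ± 0.11 at 2 h (adjusted p = 0.0115; 0.0537 without 2 h rat 1 and 0.0707 without 2 h rat 2). Lef1, a transcription factor of naive T cells, fell to -0.28 ± 0.07 (adjusted p = 0.00947; 0.0739 without 6 h rat 2) and -0.23 ± 0.12 (adjusted p = 0.0206; 0.0805 without 2 h rat 2 and 0.0539 without 2 h rat 3). Ccr7, a homing receptor, passed at 6 h alone (-0.21 ± 0.06, adjusted p = 0.0451), and that call was lost without any of 4 single rats (0.0556 to 0.189). Averaged over the 5 genes, the list lay between -0.35 and -0.16 in the rats at 6 h and between -0.30 and -0.26 at 2 h. Tcf7, 1 of the 5 and named after its values were seen, varied widely at 6 h (-0.08 ± 0.62, rats from -0.7 to 0.55).

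Because serglycin is also packed in neutrophil and mast cell granules, markers of these cells were set beside it. Of the neutrophil markers 7 were measured: of these 5 passed as higher at 6 h and 4 at 2 h, and 0 as lower, and the mean over the 7 lay between 0.44 and 0.68 in the rats at 6 h and between 0.61 and 0.79 at 2 h. The list median was lower than these means at 6 h, at 0.24, and was 0.57 at 2 h, and Chi3l1, a secreted glycoprotein of neutrophil granules, stood at -0.37 ± 0.24 at 6 h and rose by 0.57 ± 0.25 at 2 h (limma adjusted p = 0.0579 and 0.0146). The calcium-binding S100a9 rose by 2.70 ± 0.44 at 6 h and 2.98 ± 0.53 at 2 h (limma adjusted p = 0.000347 and 0.000432), and the decoy receptor Il1r2 by 0.73 ± 0.24 and 0.62 ± 0.09 (adjusted p = 0.00175 and 0.00395), whereas S100a8, the partner of S100a9, named after its values were seen, stood at -0.05 ± 0.07 and -0.08 ± 0.10. Of 5 mast cell and basophil markers Mcpt9 and Mcpt1 passed as higher at 6 h (limma adjusted p = 0.00867 and 0.0086), the first lost without 6 h rat 2 (0.0556) and the second without 6 h rat 2 (0.0698) or rat 6 (0.0535). Hdc, the histamine-forming enzyme, passed as lower at 2 h (-0.15 ± 0.09, adjusted p = 0.0488; 0.0638 to 0.205 without any of 5 single rats). The mean over these 5 genes lay between 0.07 and 0.29 at 6 h and between -0.01 and 0.07 at 2 h. With the flip arrays multiplied by -1 the median of the mast cell and basophil list at 6 h was -0.12, against 0.18 as deposited, and 1 neutrophil marker passed as higher and 1 as lower at 6 h and 0 at 2 h. S100a9 did not pass in that setting, at 0.24 at 6 h and 0.14 at 2 h (limma adjusted p = 0.0629 and 0.281). Il1r2, at -0.09 at 6 h, lost its calls there as well. The part of these cells in the ratios of Srgn and Gzmc was not tested.

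**Figure D4:**
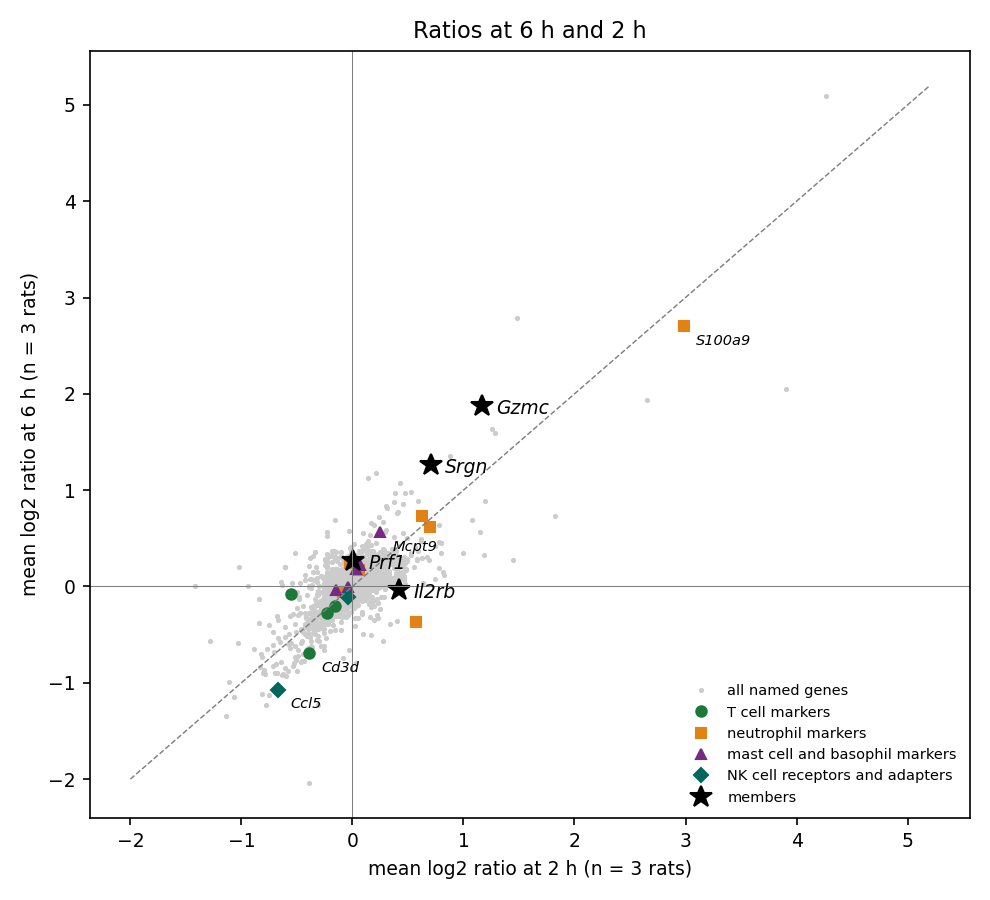
Mean log2 ratio at 6 h (vertical axis) against that at 2 h (horizontal axis), n = 3 rats each, for all 3939 named genes (grey), 4 marker lists (coloured symbols) and the members (stars); the dashed line marks equal ratios. Gzmc, Srgn and Prf1 lie above the line and Il2rb below it, with S100a9 at 2.70 (6 h) and 2.98 (2 h) and Ccl5 at -1.07 (6 h) and -0.67 (2 h).

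For each member the 3 genes with the highest Pearson correlation over the 12 arrays are named as a description, since the arrays share rats, pools and array effects. Srgn was most similar to Nr3c1 (r = 0.979), the numbered neighbour described above, then to the splicing factor gene Bud31 (0.971) and the peroxiredoxin gene Prdx5 (0.961). Gzmc was closest to the inositol phosphate kinase gene Ip6k1 (0.917), Tent5a (0.898), a poly(A) polymerase gene, and the carbonic anhydrase gene Car4 (0.883). Il2rb was closest to Fosl2 (0.920), which is numbered near it on the array, then to Sgta (0.868) and Tes (0.864). Prf1 was closest to Prl8a2 (0.894), Dgka (0.875), a diacylglycerol kinase gene, and the calcium signalling kinase gene Camkk1 (0.873). The 4 sets shared no gene.

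The similar genes differed in level from their members. Beside Srgn, Nr3c1 averaged 0.99 ± 0.09 at 6 h and 0.53 ± 0.12 at 2 h, Bud31 0.86 ± 0.12 and 0.45 ± 0.13, and Prdx5 2.78 ± 0.28 and 1.48 ± 0.29. Beside Gzmc, Ip6k1 averaged 0.76 ± 0.07 and 0.40 ± 0.11, Tent5a 0.31 ± 0.02 and 0.10 ± 0.03, and Car4 0.66 ± 0.05 and 0.17 ± 0.08. All 6 had higher means at 6 h than at 2 h, a direction that their choice by correlation with Gzmc and Srgn largely fixes. The probes of Tent5a did not read alike, at 0.22, 0.09 and 0.62 at 6 h and at 0.20, 0.08 and 0.03 at 2 h. Fosl2 averaged 0.34 ± 0.18 at 6 h and 1.00 ± 0.30 at 2 h, and Tes 0.14 ± 0.07 and 0.42 ± 0.06, both lower at 6 h, which the choice by correlation with Il2rb likewise favours. Sgta stayed near 0, at -0.05 ± 0.01 and -0.01 ± 0.01. Prl8a2 averaged 0.01 ± 0.07 at 6 h and -0.39 ± 0.07 at 2 h, Dgka 0.16 ± 0.06 and -0.08 ± 0.06, and Camkk1 0.04 ± 0.08 and -0.22 ± 0.04.

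**Figure D5:**
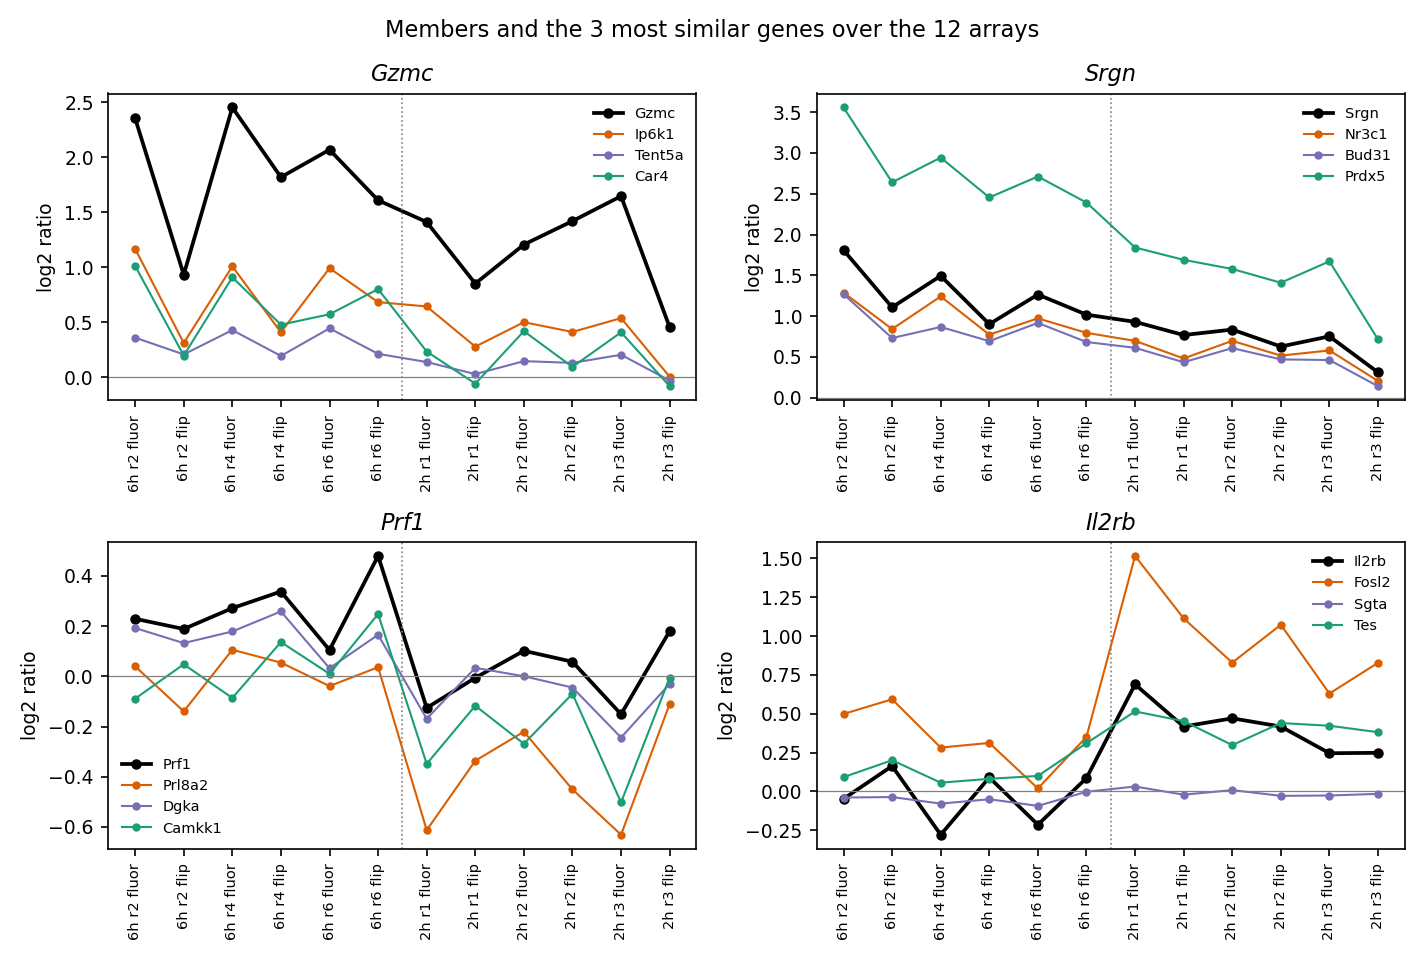
Log2 ratio (vertical axis) on each of the 12 arrays (horizontal axis, 6 h arrays left of the dotted line and 2 h arrays right of it; r is the rat) for each member (black) and the 3 genes most correlated with it (colours). The lines of Srgn, Nr3c1, Bud31 and Prdx5 run nearly parallel at different heights, and all 4 are lowest on the flip array of 2 h rat 3.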

How the data were processed

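The deposited value table holds 7200 probes on 12 arrays as log2 ratios of the 2 channels, per the labels; no source at hand states how the authors normalized them. The median of an array lay between -0.02 and 0.0083. Such ratios carry no depth, and signal over background is unknown. The rat is the replicate, so the 3 rats of each time and their 1 control pool limit the precision. Probes were named through the platform annotation, with symbols updated by gene ID: 4190 probes had 1 symbol, 46 several and 2964 none, and 3939 genes remained after probes of a gene were averaged. Both orientations were averaged per rat, giving 3 rats at 6 h and 3 at 2 h. Group means were fitted over the 6 rats with limma 3.58.1 in R 4.3.3 (4 residual degrees of freedom), with Benjamini-Hochberg adjustment over all genes and a threshold of 0.05. The fit was tested on simulated data with independent noise. These data held no orientation, pool or array effect, so that test says nothing about such effects. The control pool of a time is 1 control sample, so p-values measure the spread between these rats alone, and each ratio was tested against 0. The members and gene lists were chosen with earlier results of these data known. Beyond the members, the text names the measured genes of the granule, release, cytokine and NK lists, at most 4 genes past the threshold of each other list, by mean size over both times, and the 3 genes most correlated with each member. Alternatives were the sign of the flip arrays, 1 orientation alone, between-array scaling, neighbouring probes, an orientation term, separate times, variance settings and each rat left out.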

Additional observations from a re-analysis of the deposited data

Results flagged for a closer look

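Il1b, an LPS-induced cytokine gene, differed between 6 h and 2 h by -1.86 in limma's test of the difference (adjusted p = 0.00735). That call was lost without 6 h rat 2 (0.0554), on flip arrays alone (0.0712), after scaling between arrays (0.127), after quantile normalization (0.0856) and when the sign of the flip arrays was turned (a difference of -0.08, adjusted p = 0.802). Car4, Prdx5 and Prl8a2, chosen for their correlation with Gzmc, Srgn and Prf1 over these arrays, differed by 0.49, 1.30 and 0.40, which is a description, since that choice favours a difference between the times. For Dgka, chosen likewise for Prf1, the rats of the 2 times lay on opposite sides of 0, with a difference of 0.24. The same held for Jak1, with a difference of -0.13 that did not pass limma's test (adjusted p = 0.246). Groups of 3 rats were not examined for outlying rats.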

How the results depend on the processing

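With the flip arrays multiplied by -1, the 6 h, 2 h and 6 h minus 2 h values were 0.42, 0.26 and 0.16 for Gzmc, 0.26, 0.14 and 0.12 for Srgn, -0.07, -0.07 and 0.0012 for Prf1, and -0.15, 0.05 and -0.20 for Il2rb; genes passing at 6 h were 814 higher and 647 lower, and 0 and 0 for the difference by limma's adjusted test. On fluor arrays alone Gzmc was at 2.29 and 1.42, Prf1 at 0.20 at 6 h, Srgn at 1.52 at 6 h and Il2rb at -0.18 at 6 h, with a difference of -0.65; genes higher were 585 at 6 h and 554 at 2 h, lower 588 at 2 h, and 1 and 3 for the difference. On flip arrays alone the same values were 1.45 and 0.91, 0.34, 1.01, and 0.11 with -0.25; genes higher were 534 at 6 h and 167 at 2 h, lower 169 at 2 h, and 2 and 3 for the difference. Quantile scaling gave Srgn 1.45 at 6 h, Gzmc 1.45 at 2 h and 3 genes with a higher difference. An orientation term with a random rat block gave 542 higher genes at 6 h, 594 at 2 h, and 64 higher and 67 lower differences. A fit of 1 time alone gave 239 higher genes at 2 h. Higher differences numbered 6 after scaling and 4 after neighbours were subtracted, and trend and robust settings gave 20 higher and 13 lower. The causes were not tested. Leaving out 1 rat gave 101 to 437 higher and 205 to 490 lower genes at 6 h, 113 to 330 and 210 to 338 at 2 h, and 1 to 15 and 1 to 16 for the difference. It left Gzmc at 1.74 to 1.99 (6 h), 1.09 to 1.22 (2 h) and 0.58 to 0.82 (difference), Srgn at 1.17 to 1.33, 0.63 to 0.79 and 0.47 to 0.63, Prf1 at 0.25 to 0.30, -0.03 to 0.05 and 0.22 to 0.29, and Il2rb at -0.08 to -0.0029, 0.35 to 0.50 and -0.53 to -0.38. Signs of other genes turned with the flip arrays multiplied by -1 for Lamp1 (0.07), Stx7 (0.05), Cd7 (0.0008), Ccl5 (0.25), Cd37 (0.0072), Il1r2 (-0.09), Defa5 (-0.17), Mcpt1 (-0.23), Irf1 (-0.03), Dgka (-0.03) and Tes (-0.06) at 6 h, for Ccl5 (0.17), Lcn2 (-0.15), Fosl2 (-0.0066) and Tes (-0.0064) at 2 h, and for the difference of Car4 (-0.01). Mcpt1 at 6 h turned on fluor arrays (-0.0053) and Car4 at 2 h on flip arrays (-0.01). No paired analysis was possible because the rats of the 2 times share fewer than 2 numbers.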

Other observations

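Among other blood cells, Cd37, a B cell membrane protein, fell to -0.71 ± 0.03 at 6 h and -0.45 ± 0.08 at 2 h (limma adjusted p = 8.42e-05 and 0.000704; 0.0072 at 6 h with the flip arrays multiplied by -1). Of 4 measured B cell markers 1 passed as lower at 6 h and 2 at 2 h, the second being Blnk, whose call was lost without any 1 of the 6 rats (0.0519 to 0.176). With the flip arrays multiplied by -1, 0 passed at 2 h by limma. Of 4 monocyte and macrophage markers 2 passed as lower at 6 h and 1 at 2 h, against 2 and 0 with the flip arrays multiplied by -1. The complement gene C1qb was at -0.21 ± 0.03 and -0.20 ± 0.04 (adjusted p = 0.00488 and 0.00564), calls lost on flip arrays alone (0.408 and 0.853). C1qc, the other call at 6 h, was lost in 10 of 17 alternatives, among them 2 h rat 1, 2 h rat 3, 6 h rat 2 or 6 h rat 4 left out (0.0605 to 0.162). With the flip arrays multiplied by -1, C1qb (limma adjusted p = 0.112 at 6 h and 0.0681 at 2 h) and C1qc (0.805 at 6 h) did not pass. The 2 monocyte and macrophage markers that passed at 6 h in that setting were thus other genes. Of 11 erythroid markers 1 passed as higher and 3 as lower at 6 h, and 5 and 1 at 2 h. These were 5 and 2 at 6 h, and 4 and 2 at 2 h, with the flip arrays multiplied by -1. Calls in either direction fell to 1 at 6 h without 6 h rat 2 or rat 4, and at 2 h to 1 without 2 h rat 2 and 4 without 2 h rat 1 or rat 3. Of 2 platelet markers 0 passed at 6 h by limma, and Gp9 passed as higher at 2 h, a call lost without any 1 of 5 rats (0.0504 to 0.183). Of 9 LPS-induced genes 6 passed as higher at 6 h (4 without 6 h rat 2) and 4 at 2 h. Calls at 2 h fell to 3 without any 1 of the 3 rats of that time, when Irf1 was lost (limma adjusted p 0.052 to 0.0713). Only 1 of the 9 genes passed as higher and 1 as lower at 6 h, and 0 at 2 h, with the flip arrays multiplied by -1. Il1r2 and Lcn2, which passed as higher at both times as deposited, are counted both here and among the neutrophil markers.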
